A study of Mus musculus with 56 samples.

Results

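The response of primary mouse keratinocytes to 24 h of transforming growth factor β1 (TGF-β1) was described from 6 of the 56 2-colour arrays of the series. The arrays were chosen by title, as all those of Balb/c primary cells treated for 24 h, and no measured value entered the choice. Keratinocytes, which build the epidermis, had been isolated from newborn Balb/c mice and kept as primary cultures, and TGF-β1 was given at 1 ng/ml. On each of the 6 arrays, called replicates 1 to 6 here, RNA of treated cells (Cy5) was hybridised together with RNA of untreated primary keratinocytes (Cy3). The comparisons below also use Balb/c primary keratinocytes treated at the same dose for 1 h (6 arrays), 6 h (7 arrays) and 48 h (3 arrays), and Balb/c keratinocytes into which Ha-ras, an oncogene, had been brought by a retrovirus (ras keratinocytes below), treated for 24 h (6 arrays). All of these arrays carry treated RNA in Cy5, and each ratio was taken against untreated cells of the same kind. The fit behind the calls pooled the spread of 49 such arrays. Besides the groups above these were ras keratinocytes at 1 h (6 arrays), 6 h (7 arrays) and 48 h (4 arrays), and primary and ras keratinocytes of C57B1/SVJ mice, Smad3+/+ or with a Smad3 gene knock out (Smad3-/-), at 48 h (1 array for each of these 4 kinds). Another 7 arrays have the dyes reversed, none of them of the primary 24 h group, and the sign of their values is not settled. The labels do not say whether the arrays of a group came from separate cultures, and the series describes several arrays per timepoint sample, so p-values may measure only technical spread between arrays.

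TGF-β1 binds a pair of serine/threonine kinase receptors, which phosphorylate the transcription factors Smad2 and Smad3. These join Smad4 in the nucleus and raise or lower target genes together with other factors. In keratinocytes the pathway is known for reversible growth arrest, through induction of cyclin-dependent kinase inhibitors and loss of MYC, and for induction of extracellular matrix and adhesion genes. Keratinocytes that leave the basal layer instead follow a differentiation programme that ends in the cornified envelope, a cross-linked protein shell under the plasma membrane.

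Each value is a log2 ratio, treated over untreated, centred on the median of its array, so 1 is a doubling. The log base is not given in the sources used here, and the direction is likely from the channel order. Because the dye orientation is the same on all 6 arrays, a constant preference of a gene for 1 dye stays in its value. The arrays differed in width: the SD over all features was between 0.268 and 0.507 in replicates 1 to 4, 0.652 in replicate 5 and 0.853 in replicate 6. Replicates 5 and 6 were thus the widest. Their correlation with the mean of the other arrays was also lowest, at 0.113 and 0.193, against 0.261 to 0.321 for replicates 1 to 4. Pairwise correlations over all features were 0.143 to 0.352 among replicates 1 to 4 and -0.07 to 0.161 for pairs with replicate 5 or 6. These ranges overlapped, and replicates 5 and 6 correlated with each other at only 0.127. The array numbers in the titles put the 6 arrays in 6 different number blocks, so a block holds no more than 1 of them, and replicates 5 and 6 lie in the highest ones. Results are therefore given with and without these 2 arrays. Ratios hold no expression level, so the cell type on the label could not be checked against the level of its markers, and in these bulk samples fewer cells of a type and less RNA per cell cannot be told apart. Of the keratinocyte markers 10 were measured and 0 were called in the 24 h response with limma (2 at an unadjusted p under 0.05). Of 9 fibroblast, 3 melanocyte and 6 endothelial markers 0 were called (1, 0 and 0 at an unadjusted p under 0.05). Of 15 immune markers 1, Lyz2, was called higher, and 3 had an unadjusted p under 0.05: besides Lyz2 these were Ctss at 0.58 (arrays from 0.12 to 1.13) and Ptprc at 0.51 (arrays from 0.05 to 1.73), positive on all 6 arrays. Among the 15, 11 had a positive mean and 4 a negative one, with Cd8a lowest at -0.26. The medians of the marker ratios over replicates 1 to 6 lay between -0.44 and 0.08 for keratinocytes, between -0.61 and 0.59 for fibroblasts and between -0.19 and 0.45 for immune cells. Whether other cells contributed to the responses was not tested.

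At 24 h more features fell than rose. Of 8905 features, 6795 of them named genes, 121 (1.36%) passed the threshold of 0.05 on the adjusted p (Benjamini-Hochberg), which is what called means here, and 900 (10.1%) had an unadjusted p under 0.05. Of the called features, 31 were higher (0.348%) and 90 lower (1.01%). Among named genes 27 rose and 75 fell. A change of at least 2-fold was reached by 10 of the rises and 22 of the falls, and the largest change was 5.48-fold. The direction was the same on all 6 arrays for 95 of the 121 called features, 69 falls and 26 rises, against 670 of all 8905 (7.52%), 3.86% all negative and 3.66% all positive. The calls were made on the means of these same arrays, so the larger share is partly fixed by the call and is no measure of agreement. Over all features the median response was -0.02, and 53.9% had a negative mean. Of the 121 called features 73 had their most extreme value in replicate 6 and 17 in replicate 5. With replicates 1 to 4 alone, a setting chosen after the values were seen, 7 features rose and 73 fell, and 5 of the 31 rises and 42 of the 90 falls were among them. The calls rest on the spread shared by all groups: limma fitted on the 6 arrays alone called 10 features, 2 higher and 8 lower. As a difference from the 1 h response, in which a constant dye preference cancels, 15 were called, 1 higher and 14 lower. With the dye-reversed arrays added and a dye term, limma called 0 features if their values were taken as deposited (235 at an unadjusted p under 0.05) and 326 if turned, 18 higher and 308 lower. The named genes called were 102, and 61 of them are named here as largest changes or list members. Taken as deposited the reversed arrays ended the calls of all these 61, and turned those of 18.

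**Figure D1:**
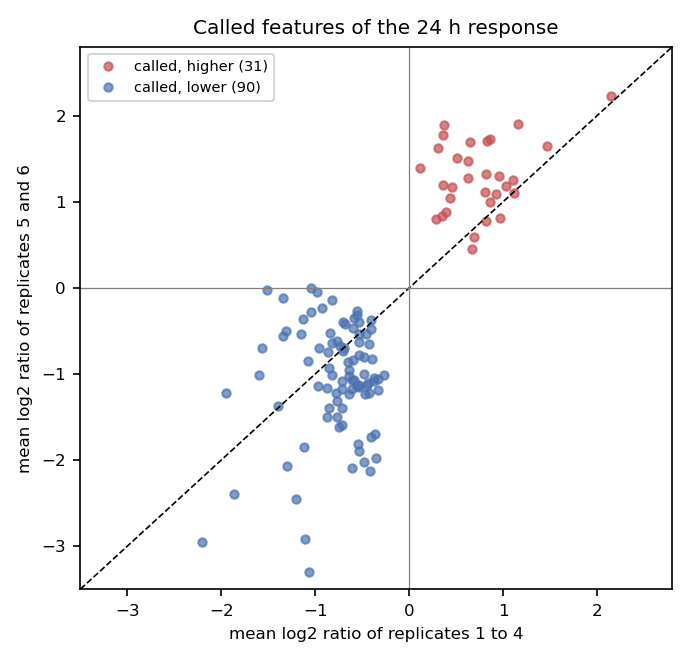
Mean log2 ratio of replicates 5 and 6 (vertical) against that of replicates 1 to 4 (horizontal) for the 121 called features, 31 higher (red) and 90 lower (blue); the dashed line marks equal values. The size was larger in replicates 5 and 6 for 85 of the 121, and 1 of the 121 had opposite signs in replicates 5 and 6 and over all 6 arrays.

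Part of the genes of the cornified envelope and of terminal differentiation fell. Of 24 measured members of this list 7 fell and 0 rose in limma's test (14 lower and 0 higher at an unadjusted p under 0.05). A negative mean was found for 22 of them, and the list median was -0.51 against -0.02 for all features. The members of this list and of the lists below were chosen with earlier results of these data known. Their counts and medians, set beside all features, may therefore be partly fixed by that choice. The promoter regions of the small proline-rich genes Sprr1a and Sprr2a1 are shown because these 2 envelope precursor genes fell side by side. Each line gives the 250 bases before the start of transcription, from RefSeq (GRCm38.p6), and capitals mark TGANTCA, the AP-1 motif, searched on both strands. They lie at chr3:92485882-92486131, minus strand, and chr3:92215585-92215834, plus strand, in that order.

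Sprr1a: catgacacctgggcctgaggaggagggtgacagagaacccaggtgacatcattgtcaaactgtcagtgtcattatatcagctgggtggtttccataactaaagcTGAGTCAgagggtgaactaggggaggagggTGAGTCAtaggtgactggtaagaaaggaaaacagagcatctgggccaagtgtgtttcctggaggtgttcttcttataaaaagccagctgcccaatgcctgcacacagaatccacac
Sprr2a1: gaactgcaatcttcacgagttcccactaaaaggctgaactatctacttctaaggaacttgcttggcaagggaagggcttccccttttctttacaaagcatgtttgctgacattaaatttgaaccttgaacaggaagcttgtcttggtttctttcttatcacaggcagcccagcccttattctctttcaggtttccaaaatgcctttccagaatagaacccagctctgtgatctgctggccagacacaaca

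The motif matched 2 times before Sprr1a and 0 times before Sprr2a1, and it was found before 6.87% of 27025 genes. It occurred before 4 of the 18 list members with a promoter entry, a share that describes the list as it was chosen. A match is a description of the letters and not evidence of a bound factor.

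The values of Sprr2a1, which encodes an envelope precursor of a family of similar genes that a probe may not tell apart, ran from -3.61 to -1.64 (median -2.28). Treated RNA was far lower on all 6 arrays. The mean fell by 2.45 (SE 0.18, SD 0.66, n = 6, adjusted p = 1.9e-12). Sprr1a, another precursor cross-linked by transglutaminases, lay from -3.52 to -0.93 (median -1.28), lowest in replicates 5 and 6. Its mean fell by 1.71 (SE 0.23, SD 1.02, n = 6, adjusted p = 7.94e-06). For Fabp5, the epidermal fatty acid binding protein, the arrays lay from -2.62 to -1.19 (median -2.29), and the mean fell by 2.05 (SE 0.20, SD 0.65, n = 6, adjusted p = 2.45e-09). Replicates 2 and 4 were its weakest arrays, at -1.27 and -1.19. Il1f5, a receptor antagonist of the interleukin 36 cytokines, spread from -4.25 to -0.79 (median -1.29), with replicate 5 far below the others. It fell by 1.81 (SE 0.27, SD 1.32, n = 6, adjusted p = 6.38e-05). Periplakin, Ppl, which links the envelope to desmosomes and intermediate filaments, was the most even of these genes. Its arrays read -1.12, -0.95, -0.66, -1.17, -1.12 and -1.17, and the mean fell by 1.03 (SE 0.13, SD 0.20, n = 6, adjusted p = 3.13e-06). Ly6d, a keratinocyte surface protein gene, fell by 1.36 (SE 0.26, adjusted p = 0.00187) with arrays from -3.32 to -0.39 (median -1.16). Serpinb2, a serine protease inhibitor gene, fell by 0.88 (SE 0.17, adjusted p = 0.00269), although replicate 5 was positive at 0.16.

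Members that did not pass the test included S100a9 at -1.45, Klk7 at -0.78, filaggrin (Flg) at -0.51, loricrin (Lor) at -0.40 and the suprabasal keratin Krt10 at -0.14; these 5 were named after their values were seen. The list median was -0.26 to -0.17 in replicates 1 to 4, -1.14 in replicate 5 and -1.21 in replicate 6. On replicates 1 to 4 alone, limma again called 7 members lower, with a list median of -0.16. There Sprr2a1 stood at -2.21 (adjusted p = 4.03e-09), Fabp5 at -1.87 (adjusted p = 9.07e-06), Ppl at -0.97 (adjusted p = 7.03e-04) and Sprr1a at -1.10 (adjusted p = 0.00736). A call ended for Serpinb2 (replicate 6 left out, adjusted p = 0.0643).

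**Figure D2:**
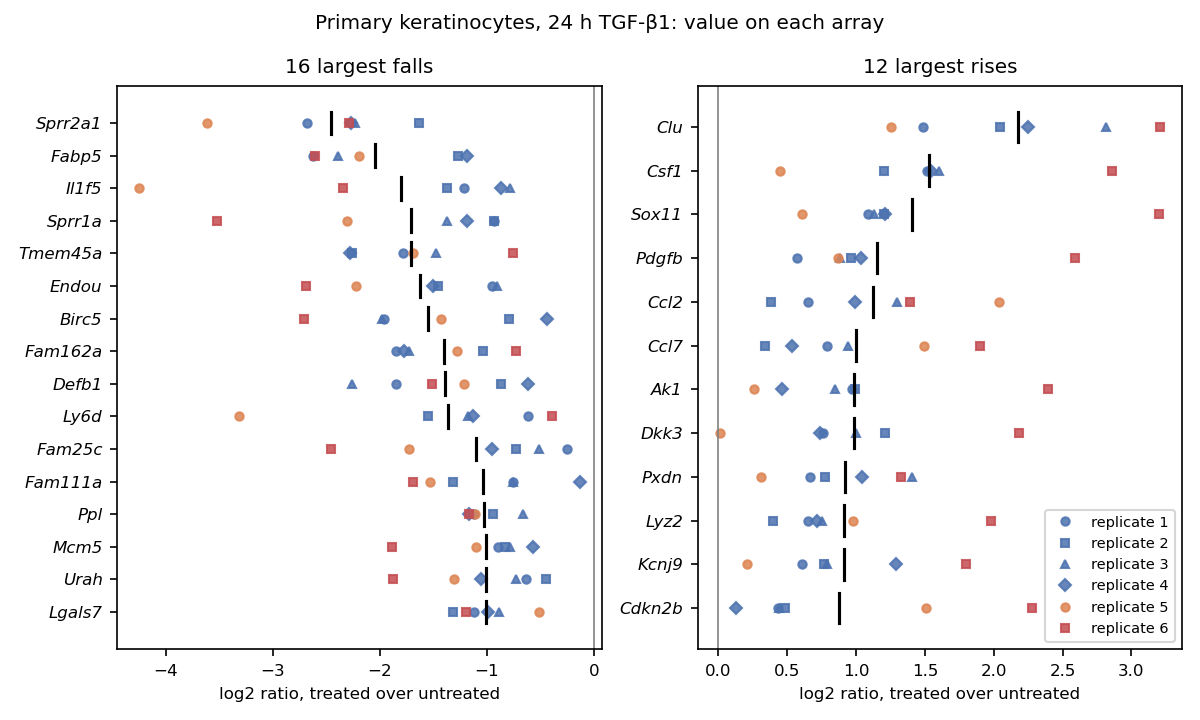
Log2 ratio, treated over untreated, on each of the 6 arrays (points; replicates 1 to 4 blue, 5 orange, 6 red) for the 16 largest falls (left) and 12 largest rises (right) among called genes with 1 sign on all 6 arrays; black ticks are means. The falls reach -4.25 for Il1f5 in replicate 5 and the rises 3.21 for Clu in replicate 6, while Ppl stays between -1.17 and -0.66.

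Several large falls lay outside the envelope list. Tmem45a, a transmembrane protein gene, ran from -2.28 to -0.75 (median -1.74) and fell by 1.71 (SE 0.22, SD 0.57, n = 6, adjusted p = 4.86e-06); replicates 2 and 4 were lowest and replicate 6 weakest. Endou, which encodes an endoribonuclease, lay from -2.69 to -0.91 (median -1.48) and fell by 1.62 (SE 0.22, SD 0.71, n = 6, adjusted p = 7.39e-06). Galectin 7, Lgals7, a lectin of stratified epithelia, lay from -1.32 to -0.51 (median -1.06) and fell by 1.00 (SE 0.17, SD 0.28, n = 6, adjusted p = 4.7e-04), one of the narrower ranges. Urah, an enzyme gene of urate breakdown, fell by 1.01 (SE 0.17, adjusted p = 3.23e-04) and Fam25c by 1.10 (SE 0.23, adjusted p = 0.00422). Defb1, which encodes the antimicrobial peptide β-defensin 1, fell by 1.39 (SE 0.28, adjusted p = 0.00343) with arrays from -2.26 to -0.61 (median -1.37). On the epithelial defence list of 10 genes 1 rose and 1 fell (median 0.00): the other call was lysozyme, Lyz2, which rose by 0.91 (SE 0.18, adjusted p = 0.00197). Lyz2 is also on the list of 15 immune markers, of which 11 had a positive mean and 4 a negative one. Ctss and Ptprc had positive values on all 6 arrays as well. Tyrobp stood at 0.21, Cd68 at 0.11, Fcer1g at 0.07 and Aif1 at -0.19, and none of these passed the test. The part of immune cells in the rise of Lyz2 was not tested. A call ended for Fam25c (replicate 6 left out, adjusted p = 0.0946). When replicates 5 and 6 were left out, Tmem45a stood at -1.95 (adjusted p = 2.44e-05), Endou at -1.21 (adjusted p = 0.00701), Lgals7 at -1.08 (adjusted p = 0.00419) and Defb1 at -1.40 (adjusted p = 0.0432). Urah at -0.72 (adjusted p = 0.0653), Fam25c at -0.61 (adjusted p = 0.481) and Lyz2 at 0.63 (adjusted p = 0.163) were then not called.

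Of 34 measured members of the list of keratins, desmosomes and junctions, which also holds the transcription factor gene Klf5, 3 fell and 1 rose. Of them 25 had a negative mean, and the median was -0.17. Klf5, a zinc finger factor of basal epithelial cells, fell by 0.88 (SE 0.17, SD 0.32, n = 6, adjusted p = 0.00197), with all arrays from -1.26 to -0.37 (median -0.89). The gap junction protein gene Gja1 (connexin 43) fell by 0.84 (SE 0.16, SD 0.26, n = 6, adjusted p = 0.00187), again on all 6 arrays, from -1.10 to -0.50 (median -0.88). Pkp1, the desmosomal plaque protein plakophilin 1, fell by 0.71 (SE 0.18, adjusted p = 0.0285). Cldn4, a claudin of tight junctions, rose by 0.60 (SE 0.15, adjusted p = 0.025), and its arrays read 0.57, 0.74, 0.55, 0.80, 0.81 and 0.10, so replicate 6 was the low one. The basal keratin Krt5 stood at 0.04 and Trp63, the master regulator of stratified epithelia, at -0.37; neither passed the test, and both were named as markers of the cell type. The keratin genes Krt71 and Krt79, on no list and named after their values were seen, fell by 0.92 (SE 0.24, adjusted p = 0.0311) and 0.87 (SE 0.23, adjusted p = 0.0361), each negative on all 6 arrays. Of 24 proteases and inhibitors 2 fell and 0 rose in limma's test (3 higher at an unadjusted p under 0.05; median -0.02). Serpinb5 (maspin) fell by 0.72 (SE 0.17, adjusted p = 0.0125) and the lysosomal protease gene Ctsh by 0.59 (SE 0.14, adjusted p = 0.0146). Calls ended for Pkp1 (replicate 1, 2 or 6 left out, highest adjusted p = 0.254), Cldn4 (replicate 1, 2, 3, 4 or 5 left out, highest adjusted p = 0.0894), Serpinb5 (replicate 1 or 6 left out, highest adjusted p = 0.081) and Ctsh (replicate 2 left out, adjusted p = 0.114). Without replicates 5 and 6, limma called 1 member of the junction list lower, the transcription factor gene Klf5 at -0.96 (adjusted p = 0.0106). Gja1 at -0.72 (adjusted p = 0.0785), Pkp1 at -0.70 (adjusted p = 0.147) and Cldn4 at 0.67 (adjusted p = 0.0676) were then not called.

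Part of the genes of cell division fell, and their list medians were lowest on replicates 5 and 6. Of 38 measured genes of mitosis and G2/M 7 fell and 0 rose in limma's test (21 lower and 0 higher at an unadjusted p under 0.05), 34 had a negative mean, and the list median was -0.45. Of 35 S phase and replication genes 5 fell and 0 rose (13 lower and 0 higher at an unadjusted p under 0.05), 30 had a negative mean, and the median was -0.32. The promoter regions of Birc5, the larger fall, and Cenpa are shown for the mitosis list, as 250 bases before the start (RefSeq, GRCm38.p6). Capitals mark CCAAT, the NF-Y motif, and TTTGAA, the core of the cell cycle genes homology region, on both strands. These motifs do not overlap each other in letters. The regions lie at chr11:117848987-117849236, plus strand, and chr5:30666636-30666885, plus strand, in that order.

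Birc5: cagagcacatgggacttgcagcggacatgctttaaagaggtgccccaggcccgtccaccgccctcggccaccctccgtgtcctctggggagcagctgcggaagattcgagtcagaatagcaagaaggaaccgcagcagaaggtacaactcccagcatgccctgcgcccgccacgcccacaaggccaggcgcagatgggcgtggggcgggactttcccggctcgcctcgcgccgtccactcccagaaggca
Cenpa: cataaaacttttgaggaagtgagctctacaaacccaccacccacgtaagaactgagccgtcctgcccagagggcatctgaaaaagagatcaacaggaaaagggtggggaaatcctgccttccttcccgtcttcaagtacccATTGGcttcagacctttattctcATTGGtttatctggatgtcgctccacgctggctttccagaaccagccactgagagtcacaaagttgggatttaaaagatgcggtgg

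CCAAT matched 2 times before Cenpa, TTTGAA matched before neither gene, and CCAAT had 0 matches before Birc5. CCAAT was present before 22 of the 31 list members with a promoter entry (71.0%), against 34.5% of 27025 genes, and TTTGAA before 10 of the 31 (32.3%), against 16.3%. Of the members that fell 6 had an entry, 3 of them with CCAAT and 1 with TTTGAA. These shares describe the list as it was chosen and are no result of the treatment.

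Birc5 encodes survivin, a subunit of the chromosomal passenger complex. Its arrays read -1.97, -0.80, -1.98, -0.44, -1.43 and -2.71, all negative, and the mean fell by 1.55 (SE 0.27, SD 0.84, n = 6, adjusted p = 4.05e-04). Cenpa, the centromeric histone H3 variant, lay from -2.15 to 0.10 (median -0.85) and fell by 0.99 (SE 0.24, SD 0.82, n = 6, adjusted p = 0.0214). Replicates 5 and 6 gave its lowest values, and replicate 4 was slightly positive. Plk1, a kinase of mitotic entry and spindle assembly, fell by 0.89 (SE 0.23, adjusted p = 0.0285); replicates 1, 3 and 4 were near 0 at -0.11, -0.22 and -0.23, while replicate 6 stood at -2.47. The spindle checkpoint gene Mad2l1 fell by 0.84 (SE 0.18, adjusted p = 0.00822) and the proliferation marker Mki67 by 0.82 (SE 0.18, adjusted p = 0.00552), the latter lowest in replicates 1 and 2. Cyclin A2, Ccna2, fell by 0.76 (SE 0.15, adjusted p = 0.00343), with replicate 3 lowest at -1.57 and replicate 2 positive at 0.11. Ncaph, a condensin subunit, fell by 0.68 (SE 0.15, adjusted p = 0.0104): 5 arrays lay between -0.87 and -0.80 and replicate 4 at 0.13.

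Mcm5, a subunit of the replicative helicase, lay from -1.89 to -0.57 (median -0.87) and fell by 1.01 (SE 0.16, SD 0.46, n = 6, adjusted p = 1.68e-04). Ung, a uracil DNA glycosylase, fell by 0.98 (SE 0.25, adjusted p = 0.029), the ribonucleotide reductase subunit Rrm2 by 0.81 (SE 0.20, adjusted p = 0.0191), thymidylate synthase (Tyms) by 0.60 (SE 0.16, adjusted p = 0.0405) and the chromatin assembly factor Chaf1b by 0.57 (SE 0.14, adjusted p = 0.017). Each of these 4 had its lowest value in replicate 6. Fam111a, which encodes a chromatin-bound protease of DNA replication and is on no list, fell by 1.03 (SE 0.23, adjusted p = 0.0094). Of 18 cell cycle inhibitors, cyclins and MYC family genes 1 rose and 0 fell in limma's test (3 lower at an unadjusted p under 0.05; median -0.04). It was Cdkn2b, the p15 inhibitor of CDK4 and CDK6, with arrays from 0.13 to 2.28 (median 0.46) and a mean rise of 0.88 (SE 0.21, SD 0.83, n = 6, adjusted p = 0.0178); replicates 5 and 6 stood at 1.51 and 2.28 and the other 4 below 0.5. Cdkn1a (p21) stood at 0.38, Myc at 0.15 and cyclin D1 (Ccnd1) at -0.003; none of these 3, named after their values were seen, passed the test.

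The mitosis list median was -0.17 to -0.12 in replicates 1 to 4, -0.85 in replicate 5 and -1.18 in replicate 6. For S phase it was -0.26 to -0.04, -0.54 and -1.08. In the number blocks of replicates 5 and 6 the ras arrays at 24 h had mitosis medians of -1.17 and -0.96, in that order. The other 4 ras arrays lay between -0.59 and -0.13. Primary arrays at 48 h in these blocks stood at -0.62 and 0.03. Single primary arrays at 1 h and 6 h lay only in the block of replicate 6, at 0.03 and 0.14. The part of these blocks in the falls was not tested. With replicates 1 to 4 alone, 3 mitosis genes fell: Birc5 at -1.30 (adjusted p = 0.0346), Mki67 at -0.86 (adjusted p = 0.0436) and Ccna2 at -0.82 (adjusted p = 0.0217), and the list median was -0.11. In S phase 1 gene then fell, Mcm5 at -0.77 (adjusted p = 0.0336), with a list median of -0.07, and Cdkn2b stood at 0.37 (adjusted p = 1). With 1 array left out at a time, calls ended for Cenpa (replicate 2, 5 or 6 left out, highest adjusted p = 0.267), Plk1 (replicate 2, 5 or 6 left out, highest adjusted p = 0.401), Mad2l1 (replicate 6 left out, adjusted p = 0.119), Ncaph (replicate 6 left out, adjusted p = 0.0679), Ung (replicate 5 or 6 left out, highest adjusted p = 0.413), Rrm2 (replicate 5 or 6 left out, highest adjusted p = 0.289), Tyms (replicate 1, 2, 3, 5 or 6 left out, highest adjusted p = 0.272), Chaf1b (replicate 2 or 6 left out, highest adjusted p = 0.324), Fam111a (replicate 6 left out, adjusted p = 0.0974) and Cdkn2b (replicate 5 or 6 left out, highest adjusted p = 0.289).

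**Figure D3:**
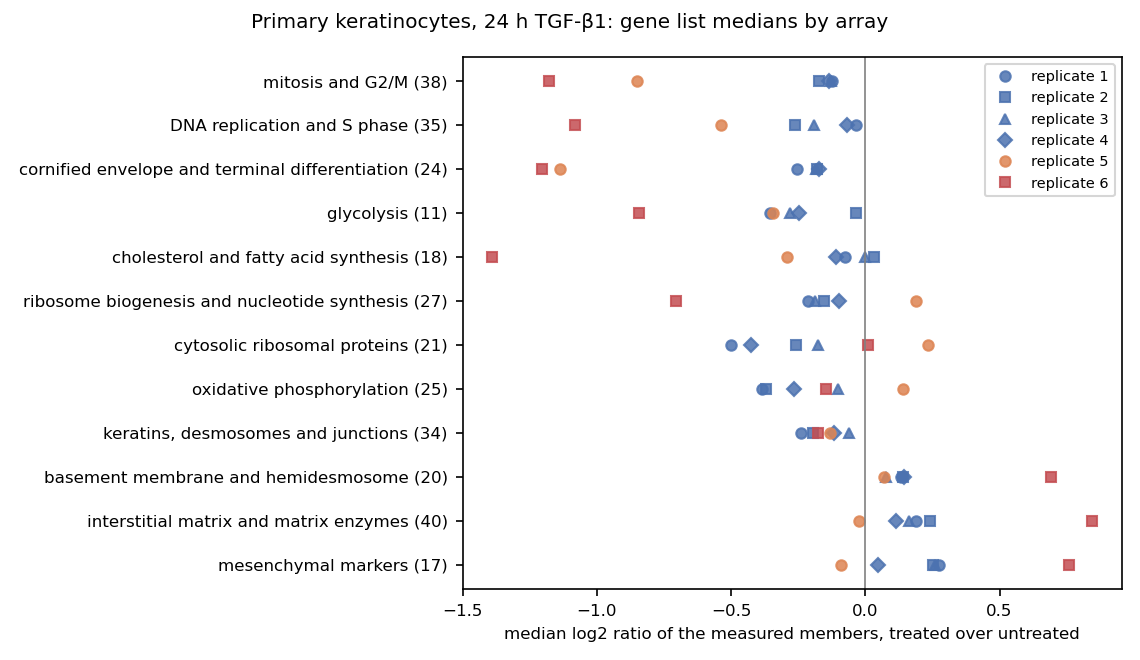
Median log2 ratio of the measured members of 12 gene lists (number of members in brackets) on each of the 6 arrays (replicates 1 to 4 blue, 5 orange, 6 red). For mitosis, S phase and the cornified envelope replicates 5 and 6 lie below the other 4, and for ribosomal proteins (0.23 and 0.01) they lie above them.

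Part of the genes of glycolysis fell. Of 11 measured members 4 fell and 0 rose in limma's test (7 lower and 0 higher at an unadjusted p under 0.05), 9 had a negative mean, and the median was -0.37. The promoter regions of Fam162a, a mitochondrial protein gene known as inducible by hypoxia, and of Pgk1 are shown with ACGTG or GCGTG in capitals, the core of the hypoxia response element, on both strands. ACGTG is also part of the E-box CACGTG. The 250 bases before each start (RefSeq, GRCm38.p6) lie at chr16:36071562-36071811, minus strand, and chrX:106186850-106187099, plus strand, in that order.

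Fam162a: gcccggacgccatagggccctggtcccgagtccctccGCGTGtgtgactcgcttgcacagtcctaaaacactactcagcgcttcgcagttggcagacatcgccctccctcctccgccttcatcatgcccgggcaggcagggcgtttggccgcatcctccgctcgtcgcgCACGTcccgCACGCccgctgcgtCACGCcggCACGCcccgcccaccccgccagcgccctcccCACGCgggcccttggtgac
Pgk1: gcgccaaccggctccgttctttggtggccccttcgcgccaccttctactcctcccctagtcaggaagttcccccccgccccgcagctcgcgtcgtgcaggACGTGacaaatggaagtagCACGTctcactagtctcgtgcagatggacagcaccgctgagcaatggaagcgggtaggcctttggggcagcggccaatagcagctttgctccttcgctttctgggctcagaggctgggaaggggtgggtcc

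The motif matched 6 times before Fam162a and 2 times before Pgk1, and it was present before 38.6% of 27025 genes. It occurred before 7 of the 11 glycolysis genes (63.6%) and before 2 of the 4 that fell. The same motif was present before 20 of the 31 mitosis genes (64.5%) and 4 of the 18 envelope genes (22.2%) with a promoter entry. Its shares describe the lists as they were chosen and are no result of the treatment. Fam162a read -1.85, -1.03, -1.73, -1.77, -1.28 and -0.73 on replicates 1 to 6, and its mean fell by 1.40 (SE 0.14, SD 0.46, n = 6, adjusted p = 2.45e-09). Pgk1, phosphoglycerate kinase, read -1.07, -0.29, -1.11, -0.89, 0.10 and -1.15, with only replicate 5 positive, and fell by 0.73 (SE 0.14, SD 0.52, n = 6, adjusted p = 0.00188). Lactate dehydrogenase A, Ldha, lay from -1.56 to -0.31 (median -0.69) and fell by 0.74 (SE 0.16, adjusted p = 0.00822). Triosephosphate isomerase, Tpi1, fell by 0.72 (SE 0.14, adjusted p = 0.00232) and pyruvate kinase, Pkm, by 0.55 (SE 0.13, adjusted p = 0.0141). The glucose transporter gene Slc2a1 stood at 0.00 and hexokinase 1 (Hk1) at 0.12, without passing the test; both were named after their values were seen. On replicates 1 to 4 alone, 2 members fell, Pgk1 at -0.84 (adjusted p = 0.00233) and Pkm at -0.60 (adjusted p = 0.0484), and Fam162a stood at -1.60 (adjusted p = 1.01e-08). Calls ended for Ldha (replicate 6 left out, adjusted p = 0.131), Tpi1 (replicate 6 left out, adjusted p = 0.0577) and Pkm (replicate 1, 2 or 6 left out, highest adjusted p = 0.114).

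Other housekeeping pathways held few calls. Of 21 ribosomal protein genes, whose probes may also detect pseudogenes, 20 had a negative mean and 0 were called with limma (5 at an unadjusted p under 0.05; median -0.20); Rpl27a stood at -0.37 and Rpl35 at -0.33. The ribosomal list was negative on replicates 1 to 4 (-0.50 to -0.18) and positive on replicates 5 and 6 (0.23 and 0.01). Without those 2 arrays the median was -0.36 and 2 members were called lower, Rpl27a at -0.62 (adjusted p = 0.0106) and, named after its value was seen, Rpl28 at -0.49 (adjusted p = 0.0432). Of 25 genes of oxidative phosphorylation 23 had a negative mean and 0 were called with limma (8 at an unadjusted p under 0.05; median -0.21). Atp5a1 stood at -0.41 and Atp5g3 at -0.36, both ATP synthase subunits. Of 27 genes of ribosome biogenesis and nucleotide synthesis 1 fell and 0 rose in limma's test (6 lower and 0 higher at an unadjusted p under 0.05; median -0.23). Fibrillarin, Fbl, a nucleolar RNA methyltransferase, fell by 0.59 (SE 0.14, adjusted p = 0.0206), and the call ended on leaving out replicate 4 or 6 (highest adjusted p = 0.324). Nucleophosmin, Npm1, named after its value was seen, was called on replicates 1 to 4 alone, at -0.68 (adjusted p = 0.0475).

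Of 18 genes of cholesterol and fatty acid synthesis 17 had a negative mean, and 0 were called with limma (8 at an unadjusted p under 0.05; median -0.24). Mevalonate kinase, Mvk, stood at -0.77 (SE 0.36) and the sterol reductase gene Hsd17b7 at -0.63 (SE 0.19). This list rested on replicate 6, where its median was -1.39, against -0.29 in replicate 5 and -0.11 to 0.03 in replicates 1 to 4. When replicates 5 and 6 were left out, it was 0.00, and Hsd17b7 stood at -0.03. Of 16 genes of lipid binding, oxidation and ceramide 0 were called with limma (2 at an unadjusted p under 0.05; median -0.10), with Fabp4 at -0.72 and Rxra at -0.42.

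Within the TGF-β pathway itself few genes were called at 24 h. Of 27 measured genes of SMAD signalling and feedback 0 rose and 1 fell in limma's test (1 higher and 4 lower at an unadjusted p under 0.05), and the median was 0.08. The ligand gene Tgfb1 stood at 0.12 (SE 0.16, adjusted p = 0.983), and Smad3 at -0.56 (SE 0.49, adjusted p = 0.877). Id2, an inhibitor of basic helix-loop-helix factors and a SMAD target, read -0.93, -1.81, -0.44, -1.34, -0.28 and -0.44, and fell by 0.87 (SE 0.20, SD 0.60, n = 6, adjusted p = 0.0139). Without replicates 5 and 6 it stood at -1.13 (adjusted p = 0.0112), and its call ended on leaving out replicate 2 or 4 (highest adjusted p = 0.126). Its relatives Id1 and Id3 stood at -0.72 and -0.54, the inhibitory Smad7 at 0.55 and the co-repressor gene Skil at 0.36; these 4, named after their values were seen, did not pass the test.

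Secreted factors held several of the largest rises. Of 36 members of the growth factor list, which also holds clusterin and the receptor gene Igf1r, 4 rose and 1 fell (median 0.12). Of 18 cytokines and chemokines 3 rose and 1 fell (median -0.04). Clusterin, Clu, an extracellular chaperone, read 1.49, 2.04, 2.81, 2.25, 1.25 and 3.21, and rose by 2.18 (SE 0.34, SD 0.75, n = 6, adjusted p = 1.16e-04). It had the largest rise among named genes, and its lowest array, replicate 5, was still more than 2-fold higher in treated RNA. Csf1, the growth factor of macrophages, read 1.51, 1.21, 1.60, 1.54, 0.45 and 2.86, and rose by 1.53 (SE 0.27, SD 0.78, n = 6, adjusted p = 4.76e-04); replicates 1 to 4 were close together, replicate 5 was low and replicate 6 high. The monocyte chemoattractant genes Ccl2 and Ccl7 rose by 1.13 (SE 0.21, adjusted p = 0.00183) and 1.00 (SE 0.19, adjusted p = 0.00197). Both were positive on all 6 arrays, Ccl2 from 0.38 to 2.04 (median 1.15) and Ccl7 from 0.34 to 1.90 (median 0.86). Interleukin 18, Il18, a cytokine that epidermal cells store as a precursor, fell by 1.08 (SE 0.24, adjusted p = 0.00814), with replicate 6 the only positive array at 0.09.

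Of the platelet-derived growth factor chains, which signal to mesenchymal cells, Pdgfb lay from 0.57 to 2.59 (median 0.92) and rose by 1.15 (SE 0.25, SD 0.72, n = 6, adjusted p = 0.00685), with replicate 6 well above the others. Pdgfc lay from -0.03 to 2.77 (median 1.10) and rose by 1.11 (SE 0.28, SD 0.99, n = 6, adjusted p = 0.0251), with replicate 3 highest. The receptor gene Igf1r rose by 0.55 (SE 0.15, adjusted p = 0.0475), from replicates 5 and 6 at 1.39 and 1.40, while the other 4 lay between 0.01 and 0.22. Wnt4, a secreted Wnt ligand, fell by 0.95 (SE 0.21, adjusted p = 0.0101). Outside the lists, Dkk3, of the dickkopf family of secreted proteins, rose by 0.98 (SE 0.20, adjusted p = 0.00328), the adenylate kinase gene Ak1 by 0.99 (SE 0.22, adjusted p = 0.0094) and the potassium channel gene Kcnj9 by 0.91 (SE 0.23, adjusted p = 0.0284). With replicates 1 to 4 alone, Clu stood at 2.15 (adjusted p = 0.00337), Csf1 at 1.46 (adjusted p = 0.00701) and Dkk3 at 0.93 (adjusted p = 0.0206), while Ccl2 (0.83, adjusted p = 0.139), Ccl7 (0.65, adjusted p = 0.224) and Pdgfb (0.86, adjusted p = 0.213) were not called. Igfbp2, an insulin-like growth factor binding protein gene named after its value was seen, was then called lower at -0.95 (adjusted p = 0.0247). With 1 array left out at a time, calls ended for Il18 (replicate 3 left out, adjusted p = 0.0797), Pdgfb (replicate 6 left out, adjusted p = 0.131), Pdgfc (replicate 1, 3, 5 or 6 left out, highest adjusted p = 0.222), Igf1r (replicate 5 or 6 left out, highest adjusted p = 0.469), Wnt4 (replicate 4 or 5 left out, highest adjusted p = 0.0834), Dkk3 (replicate 6 left out, adjusted p = 0.0718), Ak1 (replicate 6 left out, adjusted p = 0.192) and Kcnj9 (replicate 2, 3, 4 or 6 left out, highest adjusted p = 0.269).

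Matrix genes rose in part. Of 40 measured genes of the interstitial matrix and its enzymes 4 rose and 1 fell, 31 had a positive mean (46.1% of all features had one), and the median was 0.28. Biglycan, Bgn, a small proteoglycan, lay from 0.20 to 2.36 (median 0.50) and rose by 0.84 (SE 0.20, SD 0.80, n = 6, adjusted p = 0.015). Thrombospondin 1, Thbs1, which can activate latent TGF-β, lay from 0.30 to 2.07 (median 0.69) and rose by 0.84 (SE 0.20, SD 0.65, n = 6, adjusted p = 0.0146). The gelatinase gene Mmp2 rose by 0.64 (SE 0.14, adjusted p = 0.0102) and the collagen chaperone gene Serpinh1 by 0.56 (SE 0.14, adjusted p = 0.0214). For these 4 genes the highest array was replicate 6. The metalloprotease gene Adamts1 fell by 0.77 (SE 0.21, adjusted p = 0.0453); it stood at -0.59 at 1 h and -0.87 at 6 h. Peroxidasin, Pxdn, which cross-links collagen IV and is on no list, lay from 0.31 to 1.41 (median 0.91) and rose by 0.92 (SE 0.19, SD 0.42, n = 6, adjusted p = 0.0043). The type I collagen chains Col1a1 and Col1a2, also markers of fibroblasts, stood at 0.81 and 0.96 without passing the test, spread from -1.24 to 4.37 and from -0.61 to 3.88.

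Of 20 basement membrane and hemidesmosome genes 15 had a positive mean and 0 were called with limma (5 at an unadjusted p under 0.05; median 0.23). The collagen IV chain gene Col4a2 came close: its arrays read 0.60, 0.69, 0.74, 0.42, 0.64 and 0.94, with a mean of 0.67 (SE 0.19, SD 0.17, n = 6, adjusted p = 0.0545). Agrin, Agrn, stood at 0.49. Of 30 genes of integrins, focal adhesion and actin 23 had a positive mean and 0 were called with limma (8 at an unadjusted p under 0.05; median 0.12). Transgelin, Tagln, stood at 0.95 with arrays from -0.97 to 3.66 (median 0.75), and Rhob, a small GTPase gene, at 0.55 with arrays from 0.25 to 0.79 (median 0.53). Of 17 mesenchymal markers 2 rose, Mmp2 and Sox11, and the median was 0.23. Sox11, a transcription factor of the SoxC group, read 1.08, 1.21, 1.13, 1.21, 0.61 and 3.20, and rose by 1.41 (SE 0.28, SD 0.91, n = 6, adjusted p = 0.00283). Its 2 probes gave 1.55 and 1.26. The repressors of epithelial genes Snai1 at -0.04, Snai2 at 0.25, Zeb1 at 0.02 and Twist1 at 0.18, named after their values were seen, did not pass the test. The matrix list median was 0.11 to 0.24 in replicates 1 to 4, -0.02 in replicate 5 and 0.84 in replicate 6. On replicates 1 to 4 alone, the matrix median was 0.20 and 1 matrix gene was called, the protease inhibitor gene Timp1, named after its value was seen, at 1.12 (adjusted p = 0.0206). There Pxdn stood at 0.97 (adjusted p = 0.0276) and Sox11 at 1.16 (adjusted p = 0.0653). With 1 array left out at a time, calls ended for Bgn (replicate 3 or 6 left out, highest adjusted p = 0.289), Thbs1 (replicate 6 left out, adjusted p = 0.254), Mmp2 (replicate 5 or 6 left out, highest adjusted p = 0.149), Serpinh1 (replicate 6 left out, adjusted p = 0.278), Adamts1 (replicate 1, 2, 3, 4, 5 or 6 left out, highest adjusted p = 0.249) and Sox11 (replicate 6 left out, adjusted p = 0.0679).

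The other lists held few calls. Of 23 genes of apoptosis and p53 targets 1 rose and 0 fell in limma's test (2 higher and 0 lower at an unadjusted p under 0.05; median 0.02): Trp53inp1, a p53-inducible nuclear protein gene, rose by 0.83 (SE 0.18, adjusted p = 0.00552), with replicates 5 and 6 at 1.76 and 1.80 and the others between 0.23 and 0.50, and its call ended on leaving out replicate 5 or 6 (highest adjusted p = 0.109). Limma called 0 of 23 immediate early genes (7 at an unadjusted p under 0.05; median -0.13), with Junb at -0.75 and Gadd45a at 0.85. It called 0 of 22 interferon and antigen presentation genes (4 at an unadjusted p under 0.05; median 0.11), with Usp18 and Oasl2 both at 0.62. It called 0 of 35 glutathione and antioxidant genes (6 at an unadjusted p under 0.05; median -0.09), with Gsta4 at -0.62 and Gclc at 0.44, and 0 of 24 protein folding genes (6 at an unadjusted p under 0.05; median -0.06), with Chac1 at 0.46 and Cct8 at -0.42. When replicates 5 and 6 were left out, the metallothionein genes Mt1 (-1.20, adjusted p = 0.0352) and Mt2 (-1.23, adjusted p = 0.0489), of the antioxidant list and similar in sequence, were called lower; they were named after their values were seen. In all, 52 of the 102 called genes with 1 symbol lay outside the 25 lists.

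The response was next set against the earlier time points, to ask which genes had moved between them. At 24 h 5 features (0.0561%) were lower than at 6 h and 0 were higher in limma's contrast (233 lower and 140 higher at an unadjusted p under 0.05). With every array scaled to the same spread it called 17 lower and 2 higher. The 5 lower features were all named genes. Sprr2a1 was lower by 2.10 (SE 0.25, adjusted p = 2.01e-06): the 7 arrays at 6 h lay from -0.97 to 0.23, with no overlap with the 24 h arrays. Fabp5 was lower by 1.69 (SE 0.27, adjusted p = 7.86e-04); its 6 h arrays reached down to -1.59 and overlapped the 24 h range. Fam162a was lower by 1.14 (SE 0.18, adjusted p = 7.86e-04), with a 6 h range of -0.70 to 0.15 that ended just above the highest 24 h value of -0.73. Ppl was lower by 0.88 (SE 0.18, adjusted p = 0.0378), and 1 array at 6 h, at -0.76, fell inside its 24 h range. The spectrin gene Sptbn1 was lower by 0.83 (SE 0.18, adjusted p = 0.0462), but its 2 probes disagreed at 24 h: one ran from -0.07 to 0.64 (mean 0.23) and the other from -3.78 to -1.48 (mean -2.17).

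Number blocks that hold both groups gave the same sign in each of 4 blocks: -2.32 to -1.46 for Sprr2a1, -3.09 to -0.83 for Fabp5, -1.50 to -0.76 for Fam162a, -1.29 to -0.63 for Ppl and -0.89 to -0.40 for Sptbn1. Without replicates 5 and 6 the contrast called 4 features, and with a term for the number block 3. Against 1 h, 15 features were called (0.168%), 14 lower and 1 higher. Side by side, the means of Sprr1a were 0.08 at 1 h, -0.48 at 6 h, -1.71 at 24 h and -1.49 at 48 h, those of Birc5 0.17 at 1 h, -0.13 at 6 h, -1.55 at 24 h and -0.15 at 48 h and those of Clu 0.27 at 1 h, 0.60 at 6 h, 2.18 at 24 h and 2.87 at 48 h. Pdgfb stood at 0.77 at 1 h, 0.89 at 6 h, 1.15 at 24 h and 0.53 at 48 h, and Klf5 at -0.28 at 1 h, -0.90 at 6 h, -0.88 at 24 h and -1.19 at 48 h. These values may rest on shared untreated RNA.

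List medians at the other times are given side by side with those at 24 h. Against 0, limma called 766 features at 48 h (8.6%; 5.11% higher and 3.49% lower) and 936 in ras cells at 24 h (10.5%; 3.84% higher and 6.67% lower), which sets the background for the counts that follow. For the matrix list the 24 h median of 0.28 with 4 of 40 genes up and 1 down stood beside a 48 h median of 0.75 with 19 up. In ras cells at 24 h the matrix median was 0.27, with 9 up and 1 down. For the cornified envelope the median was -0.51 at 24 h and -0.72 at 48 h, with 7 and 10 of 24 genes down, and -0.49 with 9 down in ras cells at 24 h. For mitosis the median was -0.45 at 24 h, -0.23 at 48 h and -0.59 in ras cells at 24 h, and 7 and 17 of 38 genes were down at 24 h in primary and ras cells. At 48 h, with 3 arrays, limma called 0 of the 38. At 1 h and 6 h the medians of these 3 lists lay between -0.17 and 0.08. No difference between these medians was tested.

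**Figure D4:**
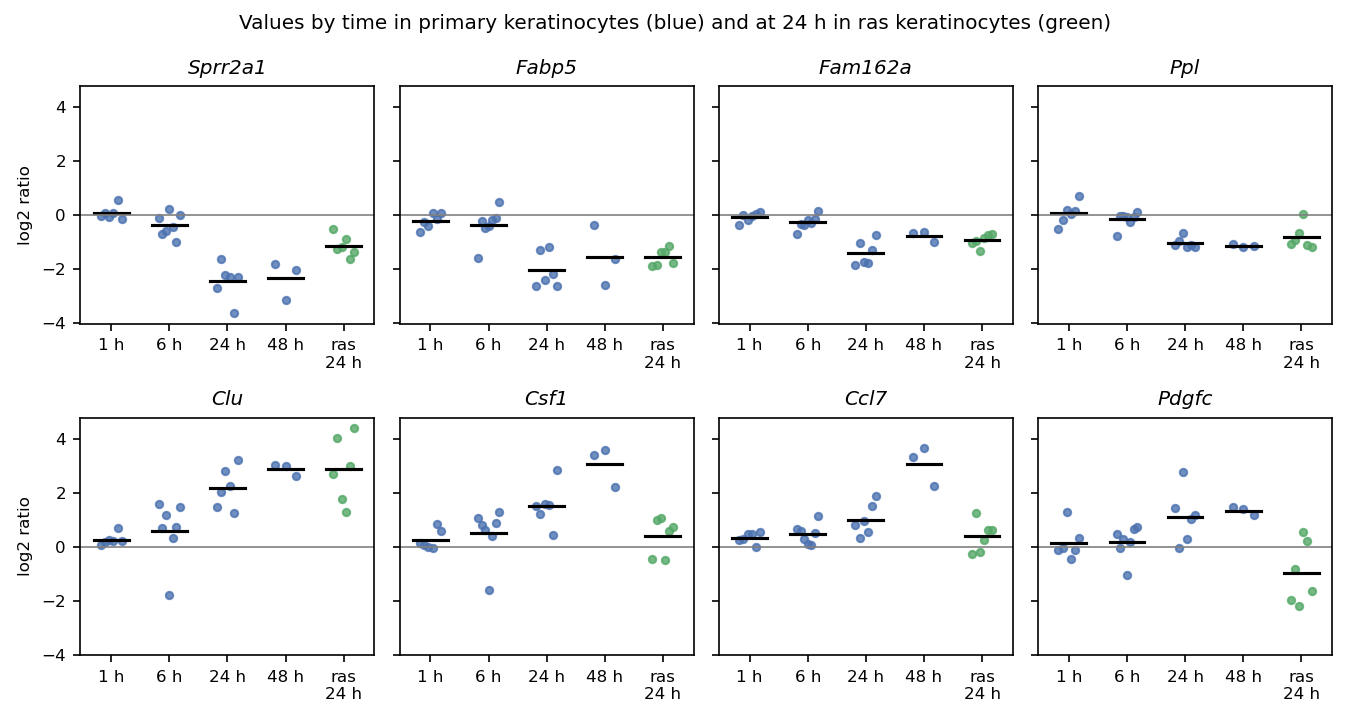
Log2 ratio on each array (points) and group mean (black lines) for 8 genes in primary keratinocytes at 1, 6, 24 and 48 h (blue; 6, 7, 6 and 3 arrays) and in ras keratinocytes at 24 h (green; 6 arrays). Sprr2a1, Fabp5, Fam162a and Ppl lie lower at 24 h than at 6 h, and Ccl7 lies higher at 48 h than at 24 h without overlap; Csf1 overlaps between these times, and its difference of 1.55 did not pass limma's contrast (adjusted p = 0.076).

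Compared with 24 h, limma called 148 features (1.66%) at 48 h, 122 higher (1.37%) and 26 lower (0.292%), with 3 arrays at 48 h. With every array scaled to the same spread the split was 40 higher and 3 lower. Ccl7 rose further, by 2.07 (SE 0.34, adjusted p = 3.92e-04), from a highest 24 h value of 1.90 to a lowest 48 h value of 2.25. S100a4, a calcium-binding protein gene used as a mesenchymal marker, stood at 0.24 at 24 h and was higher at 48 h by 2.15 (SE 0.37, adjusted p = 7.57e-04), with no overlap between the groups. Tecpr2, an autophagy gene, was negative on all 6 arrays at 24 h (-0.62) and higher at 48 h by 2.14 (SE 0.30, adjusted p = 3.74e-05). Ppic, a cyclophilin gene, differed by 2.21 (SE 0.46, adjusted p = 0.00595), with 48 h values from 1.04 to 5.04. The other named differences, Gng2 (3.15), Zfp444 (-3.10), Evx2 (-3.04), Fbxo7 (-2.85), Tead4 (-2.76) and Slc12a4 (-2.76), had an SD of 2.88 to 4.42 among the 3 arrays at 48 h and stood between -0.15 and 0.43 at 24 h. The count fell to 78 to 144 with 1 array of the 24 h group left out at a time and was lowest without replicate 2 (82 without 1, 88 without 4). The 3 arrays at 48 h stayed in each time, so dependence on a single one of them was not tested.

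Finally, the 24 h response was set against that of ras keratinocytes at the same time, to ask where the 2 differ. The groups hold no cells with an empty virus, so oncogene and retroviral infection cannot be told apart. Limma called 4 features (0.0449%), 3 higher (0.0337%) and 1 lower (0.0112%) in ras cells. Sprr2a1 was less negative in ras cells: it stood at -1.13 ± 0.38 (SD, n = 6) there and at -2.45 ± 0.66 (SD, n = 6) in primary cells, a difference of 1.32 (SE 0.26, adjusted p = 0.0228) with no overlap between the ranges, whose nearest values were -1.62 and -1.64. Pdgfc was negative in ras cells at -0.99 ± 1.16 (SD, n = 6) and differed by -2.10 (SE 0.39, adjusted p = 0.0179); the ranges overlapped between -0.03 and 0.54. Ctla2a, a cysteine protease inhibitor gene, was higher in ras cells by 1.70 (SE 0.34, adjusted p = 0.0228), and Mtg2, which encodes a GTPase of mitochondria, was higher by 1.28 (SE 0.22, adjusted p = 0.00583). Ctla2a ranges overlapped, at 0.83 and above in ras and 0.97 and below in primary cells, and those of Mtg2 did not. Within the 5 number blocks holding both groups the differences ran from 0.37 to 1.99 for Sprr2a1, 0.65 to 2.57 for Ctla2a, 1.06 to 1.45 for Mtg2 and -4.97 to 0.25 for Pdgfc. With replicates 1 to 4 alone, the contrast called 8 features, with a term for the number block 1, with replicate 1 or 3 left out 1, and on the 2 groups alone 0 (limma; 503 at an unadjusted p under 0.05). With every array scaled to the same spread 1 was called, higher in ras cells.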

How the data were processed

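Mouse 2-colour cDNA arrays were compared within the table of log2 ratios deposited by the authors, 1 column per array and 9596 probes. Per the labels, RNA of treated cells was labelled with Cy5 on the 49 arrays used and with Cy3 on 7 dye-reversed arrays used only in alternatives. Background correction, within-array normalization, log base and ratio direction were in none of the sources read; values reach 11.328 in size, and spot brightness is unknown, so precision is limited by the number of arrays.

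Median centring was applied to each array, and probes of a symbol were averaged. Of the probes 7486 had 1 gene symbol, 483 several and 1627 none; 7395 were matched to RefSeq by Entrez ID, and probes without a single symbol stayed unnamed, giving 8905 features. All mapped columns were used. limma 3.58.1 in R 4.3.3 fitted all Cy5-treated groups with 1 shared spread, tested each group mean or contrast against 0 (two-sided) and adjusted p over all features by Benjamini-Hochberg. The scripts were tested on simulated data.

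Named genes were the 12 largest rises and 16 largest falls among called genes of 1 sign on all arrays, and every called list member. Added to these were the 2 members with the largest absolute mean of each list with none called, and 5 each way per contrast. The members and lists were chosen with earlier results of these data known. Alternatives changed the spread model, array weights, scaling, centring, blocks by array number, dye-reversed arrays, probe averaging and single arrays. Replicate numbers did not pair arrays between groups: correlations of deviations over 20 pairs ran from -0.282 to 0.248.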

Additional observations from a re-analysis of the deposited data

Results flagged for a closer look

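In 16 of 83 named genes tested, 1 array lay far from the other 5 of the group by Dixon's criterion (critical value 0.625). Chance flags about 1 in 20 groups when all arrays share the same spread, which these do not: over all 8905 features the share was 14.1%, with replicate 6 the distant array for 653 and replicate 5 for 464 of 1256. The genes below were chosen by size or p, so nothing is read from their number. Replicate 6 was the distant array for 13 genes. It stood at 2.39 for Ak1, 1.98 for Lyz2, 2.59 for Pdgfb, 1.29 for Serpinh1, 3.20 for Sox11 and 2.07 for Thbs1, all genes that rose, where the other arrays reached at most 1.21. It stood at -1.69 for Chaf1b and -1.72 for Tpi1, which fell, and at 0.10 for Cldn4, which rose on the other 5 arrays by 0.55 to 0.81. Among genes without a call it stood at -1.30 for the ATP synthase subunit gene Atp5a1, -2.39 for the glutathione transferase gene Gsta4, and 2.07 and 2.35 for the interferon-responsive genes Oasl2 and Usp18.

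Replicate 5 was the distant array for Chac1, at 2.25, and for the AP-1 gene Junb, at -3.14. Replicate 4 was distant for Ncaph, at 0.13, with the other arrays at -0.87 to -0.80.

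The differences between time points or cell kinds listed here are those of the genes named by the rule of 5 each way per contrast, out of 5 features called for 24 h against 6 h, 148 for 48 h against 24 h and 4 for ras against primary cells. From 6 h to 24 h they were -2.10 for Sprr2a1, -1.69 for Fabp5, -1.14 for Fam162a, -0.88 for Ppl and -0.83 for Sptbn1. From 24 h to 48 h they were 3.15 for Gng2, 2.21 for Ppic, 2.15 for S100a4, 2.14 for Tecpr2 and 2.07 for Ccl7, and -3.10 for Zfp444, -3.04 for Evx2, -2.85 for Fbxo7, -2.76 for Tead4 and -2.76 for Slc12a4. Between ras and primary cells at 24 h they were -2.10 for Pdgfc, 1.70 for Ctla2a, 1.32 for Sprr2a1 and 1.28 for Mtg2.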

How the results depend on the processing

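The 24 h response (121 calls) gave 10 calls with its own arrays alone, 835 with array weights (202 higher, 633 lower), 383 with arrays scaled to 1 spread (103 higher, 280 lower), 326 with the reversed arrays turned and a dye term (18 higher, 308 lower), 80 without replicates 5 and 6, and 15 as a difference from 1 h; with the reversed arrays as deposited limma called 0 (235 at an unadjusted p under 0.05). Leaving out 1 replicate, here and below always an array of the primary 24 h group alone, gave 60 (without replicate 6) to 131 calls. The contrast of 24 h with 6 h (5 calls) gave 1 on its own groups, 154 with array weights, 19 scaled, 3 without centring, 3 with the number block as a fixed term, 2 with the reversed arrays turned, 0 with them as deposited (350 at an unadjusted p under 0.05) and 3 to 4 without 1 replicate. The contrast of 48 h with 24 h (148 calls) gave 5, 451, 43, 7 with the reversed arrays as deposited, 71 with them turned and 78 to 144 without 1 replicate, in the same order of settings. The contrast of ras with primary cells (4 calls) gave 0 on its own groups (503 at an unadjusted p under 0.05), 135 with array weights, 1 scaled, 1 with the number block as a fixed term, 0 with the reversed arrays as deposited (637), 2 with them turned, 1 without the 2 widest arrays, 8 without replicates 5 and 6 and 1 to 5 without 1 replicate. The cause of these shifts was not tested.

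With the replicate number as a block, which does not pair these arrays, the counts were 115 (45 higher, 70 lower), 4, 87 (73 higher, 14 lower) and 4. Directions turned for Tgfb1 (-0.43) and Usp18 (-0.030) with the reversed arrays as deposited, for Chac1 without replicates 5 and 6 (-0.025), and for Rhob (-0.23) and Smad3 (0.26) as a difference from 1 h. Of the 61 called genes named as largest changes or list members, out of 102 called, 25 kept their call without each single replicate. Without replicate 6, 31 lost it. Own arrays alone ended 54 of the 61 calls, the difference from 1 h 50, the dye term with reversed arrays turned 18 and with them as deposited 61. Apart from own arrays alone and reversed arrays as deposited, 10 kept their call under every setting.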
